A study of Mus musculus with 2 samples.

Results

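The regions described here are 214 stretches of open chromatin that lie away from the promoters of protein-coding genes and yet held a count in a large share of the nuclei of embryonic mouse kidneys. They were chosen by measured values and by position, as autosomal peaks of the Enl-WT library that overlapped a peak of the Enl-T1 library, lay more than 2 kb from and within 100 kb of a transcription start site (TSS) of a protein-coding gene, and held a count in 15% or more of the nuclei of both libraries. Of 111688 Enl-WT peaks that overlapped an Enl-T1 peak, 109533 were autosomal, 66284 of these lay in that range of distances, and 214 of those passed the share. The other 66070 shared distal regions, and 3675 open promoter regions that lay within 2 kb of such a TSS and passed the same share, serve as the sets they are set beside.

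Whole kidneys of B6 mouse embryos at E15.5 were profiled by single-nucleus ATAC-seq, an assay that sequences the fragments freed by a transposase from accessible DNA in each nucleus. There was 1 library in each of 2 groups. Enl-WT embryos were Enl +/+ Wt1 GFPCre/+ and Enl-T1 embryos were Enl flox-T1/+ Wt1 GFPCre/+, so both groups carried the Cre allele, which inactivates 1 copy of Wt1, and the T1 allele, a small insertion in the chromatin reader ENL (gene Mllt1) found in Wilms tumour, was switched on by a Cre that acts in the nephron and stromal lineages and not throughout the kidney. The sources used here do not state the number of embryos behind each library. With 1 library in each group, no difference between them has a replicate check, and library and genotype cannot be told apart.

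Open chromatin of mammalian cells is of broadly 2 kinds. Promoters of widely expressed genes often sit in CpG islands, stretches rich in G, C and the CpG dinucleotide that are mostly unmethylated and open in almost every cell type, and are bound by factors such as SP1 and NF-Y. Enhancers mostly lie away from promoters, are poor in CpG and open in a few cell types, where they are bound by factors of that lineage and by AP-1. Regions open in nearly all cells can also be binding sites of the insulator protein CTCF, genes read by RNA polymerase III such as those of transfer RNAs (tRNAs), whose inner promoter holds the B box, or starts of noncoding RNAs.

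The sequences of 5 of the regions and of 3 tRNA genes inside others show the kinds of sequence that the set holds. Windows are the 300 bases around the centre of the Enl-WT peak in GRCm38 (RefSeq), written from 5′ to 3′ of the stated strand, and capitals mark the motif named for each. The window nearest to Zbtb20 is that of the region open in the largest share of nuclei in both libraries, and its capitals mark the NF-Y letters CCAATCA and the SP or KLF letters GGGGCGGG. The window nearest to A830005F24Rik marks the latter letters and the cyclic AMP response element (CRE) TGACGTCA. The window nearest to Ccne1 shows a match of the CTCF motif in CpG-rich sequence. The window nearest to Serpinh1 shows an AP-1 match, TGANTCA, in a region that differed widely between lineages. The window nearest to Axin2 holds none of the 25 motifs searched and no capitals, and is shown because its counts followed those of ribosomal RNA sequence, as described further on.
Zbtb20 window (chr16:42875603-42875902, + strand): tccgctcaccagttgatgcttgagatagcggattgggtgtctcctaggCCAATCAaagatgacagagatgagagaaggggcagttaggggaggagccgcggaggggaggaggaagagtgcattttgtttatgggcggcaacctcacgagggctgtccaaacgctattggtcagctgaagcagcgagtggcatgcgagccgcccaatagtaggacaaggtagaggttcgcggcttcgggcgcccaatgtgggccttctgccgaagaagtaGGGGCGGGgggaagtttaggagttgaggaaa
A830005F24Rik window (chr13:48545640-48545939, + strand): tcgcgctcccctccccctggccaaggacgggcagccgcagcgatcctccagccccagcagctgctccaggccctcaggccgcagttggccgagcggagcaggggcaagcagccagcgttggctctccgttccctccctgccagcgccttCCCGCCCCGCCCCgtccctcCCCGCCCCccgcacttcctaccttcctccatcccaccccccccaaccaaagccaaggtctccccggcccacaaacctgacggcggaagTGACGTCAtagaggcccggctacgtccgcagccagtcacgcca
Ccne1 window (chr7:38084923-38085222, + strand): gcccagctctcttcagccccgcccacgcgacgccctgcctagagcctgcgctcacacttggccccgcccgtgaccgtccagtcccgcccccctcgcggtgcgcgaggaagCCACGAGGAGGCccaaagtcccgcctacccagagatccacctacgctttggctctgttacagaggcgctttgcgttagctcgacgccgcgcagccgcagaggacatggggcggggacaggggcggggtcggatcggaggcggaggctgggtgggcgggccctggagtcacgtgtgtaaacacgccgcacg
Serpinh1 window (chr7:99360238-99360537, + strand): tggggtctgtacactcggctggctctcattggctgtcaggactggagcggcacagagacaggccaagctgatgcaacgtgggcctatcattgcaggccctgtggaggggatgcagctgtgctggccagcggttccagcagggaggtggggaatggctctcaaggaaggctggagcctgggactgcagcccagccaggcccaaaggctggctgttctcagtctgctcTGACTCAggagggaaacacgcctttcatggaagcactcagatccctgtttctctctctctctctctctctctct
Axin2 window (chr11:109011831-109012130, + strand): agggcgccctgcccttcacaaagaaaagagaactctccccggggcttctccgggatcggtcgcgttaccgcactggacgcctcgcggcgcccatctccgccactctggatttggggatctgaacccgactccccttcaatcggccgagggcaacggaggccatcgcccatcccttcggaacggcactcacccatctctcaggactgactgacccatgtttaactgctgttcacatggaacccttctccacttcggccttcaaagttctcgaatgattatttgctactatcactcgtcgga
The tRNA genes are those for threonine (n-TTcgt3), leucine (n-TLcag5) and serine (n-TSgct5), and capitals mark the letters of the B box, the inner promoter element to which the polymerase III factor TFIIIC binds.
n-TTcgt3 (chr11:79704650-79704721, + strand): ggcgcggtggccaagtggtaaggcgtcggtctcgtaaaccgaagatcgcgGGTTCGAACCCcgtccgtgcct
n-TLcag5 (chr8:94703631-94703713, + strand): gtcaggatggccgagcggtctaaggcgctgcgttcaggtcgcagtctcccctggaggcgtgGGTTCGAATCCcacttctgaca
n-TSgct5 (chr13:22050686-22050767, - strand): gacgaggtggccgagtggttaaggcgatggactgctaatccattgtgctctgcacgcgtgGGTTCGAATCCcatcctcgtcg

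After barcodes with 2000 to 100000 counts were kept, 9472 nuclei of Enl-WT (median 14789.5 counts) and 12635 of Enl-T1 (median 8753) remained, and 169 barcodes were found in both libraries. The libraries thus differed in depth. Both ends of most fragments were counted, so 2 counts stand for about 1 fragment. Markers of the kidney's lineages stood out in the clusters: nephron, stroma, ureteric epithelium and endothelium took 46.0, 31.3, 9.06 and 8.02% of the nuclei of Enl-WT and 36.0, 38.2, 12.8 and 4.88% of those of Enl-T1.

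The values that chose the regions are given as a description. In Enl-WT the share of nuclei with a count had a median of 26.6% and a range of 15.4 to 63.8%. In Enl-T1 the median was 17.97% and the range 15.01 to 49.5%. Thinning of nuclei to 2500 fragments left out shallower nuclei and kept 9064 of 9472 (Enl-WT) and 11071 of 12635 (Enl-T1). The medians were then 11.3 and 11.1%, so the gap between the medians seen without thinning was nearly gone. Of the 214 shares, 110 (51.4%) were then lower in Enl-T1, against 46.7% of the other distal and 69.9% of the open promoter regions. The part of depth in the gap was not tested. A median of 61 of the regions were open in a nucleus of Enl-WT and 42 in a nucleus of Enl-T1, and the regions held 1.19 and 1.18% of all counts in shared regions.

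**Figure D1:**
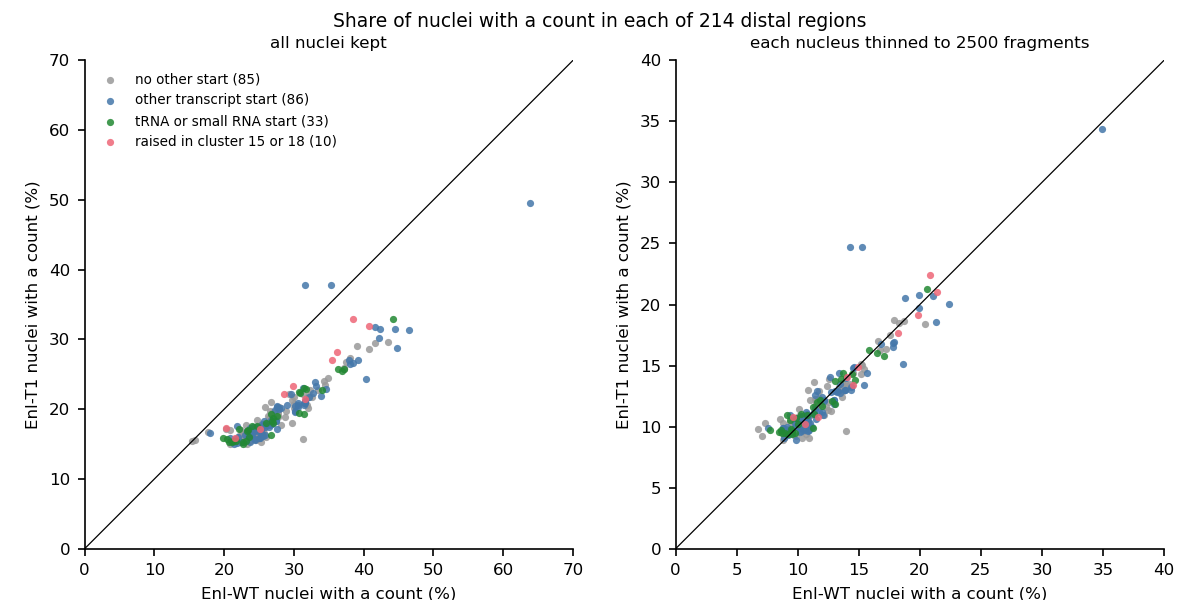
Share of nuclei with a count in each of the 214 regions, Enl-WT on the x axis and Enl-T1 on the y axis, for all nuclei kept (left) and after thinning to 2500 fragments, without the nuclei below that depth (right). Each point is a region, coloured by the start site within 2 kb or by its rise in cluster 15 or 18, and the line marks equal shares. Most points lie below the line on the left and around it on the right, where the medians are 11.3 and 11.1%.

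The region most widely open, chr16:42874919-42876587, held a count in 63.8% of Enl-WT nuclei, 6042 of 9472 (exact 95% interval 62.8 to 64.8%) and 49.5% of Enl-T1 nuclei (48.6 to 50.4%), and in 34.9 and 34.4% after thinning. It lies 31058 bp from the nearest coding TSS, that of Zbtb20, which encodes a zinc finger transcription factor, and overlaps the start of the long noncoding RNA 4932412D23Rik. No other region came within 10 percentage points of it in either library. The intervals of these shares cover counting error only.

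The second and the seventh by the smaller share of both libraries were a pair of neighbouring Enl-WT peaks, chr13:48546316-48547011 and chr13:48545286-48546293, with 35.3 and 31.6% of Enl-WT nuclei. Both overlap 1 longer Enl-T1 peak of 1470 bp, with 37.8% of Enl-T1 nuclei, against widths of 696 and 1008 bp, so their values in Enl-T1 refer to a longer stretch. They lie at the start of the long noncoding RNA 6720427I07Rik, 8044 and 7014 bp from Mirlet7a-1, a gene of the let-7 family of microRNAs, which hold back growth and stem cell genes. The others among the first 10 lay nearest to Axin2 (38.5 and 33.0% in Enl-WT and Enl-T1), Tlcd2 (44.2 and 32.9%), Rpusd4 (40.8 and 31.97%), Arid1a (41.7 and 31.8%), Zfp958 (42.3 and 31.5%), Mier3 (44.5 and 31.4%) and Wnt7b (46.5 and 31.4%). Arid1a encodes a subunit of the SWI/SNF remodelling complex, Axin2 a feedback inhibitor of Wnt signalling and Wnt7b a Wnt ligand of the ureteric epithelium, but each of these TSSs was over 50 kb away.

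At the edge of the rule the shares in Enl-T1 decided. The last regions inside lay nearest to Arhgef10l (23.3% in Enl-WT and 15.07% in Enl-T1), Kcnrg (22.8 and 15.05%) and 4930444G20Rik (21.4 and 15.01%). The first outside lay nearest to Slfn14 (22.9 and 14.97%), Insr (22.6 and 14.96%) and Lrp3 (22.03 and 14.95%), so the Enl-T1 shares on either side of the threshold differ by less than their counting error. A further 490 shared distal regions passed 15% in Enl-WT alone and 0 in Enl-T1 alone.

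The regions lay closer to coding genes than other distal regions did and less often in introns. Their median distance to the coding TSS was 11941.5 bp against 23769.5 bp, and 46.7% lay within 10 kb against 23.5%. The centre was intergenic in 136 (63.6%, against 39.5% of the other distal regions) and in an intron of a coding gene in 36 (16.8% against 49.1%). It was in a coding gene's exon in 13 (6.07% against 5.06%), in a noncoding gene's exon in 18 (8.41% against 1.285%) and in a noncoding gene's intron in 11 (5.14% against 5.14%). They were spread over 19 chromosomes, from 22 regions on chromosome 7 to 1 on chromosome 18, and had 198 nearest genes. Of these genes 15 had more than 1 region, and Actg1, the gene of cytoplasmic gamma-actin, had 3, at 30315, 35211 and 41302 bp from its TSS.

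Although no coding TSS of GENCODE lay within 2 kb by the rule, 122 of the 214 regions (57.0%) had another annotated start within 2 kb, against 18.5% of the other distal regions. Long noncoding RNAs accounted for 42 (19.6% against 4.83%), small RNAs for 20 (9.35% against 1.32%) and tRNA genes for 14 (6.54% against 0.206%). Noncoding transcripts of coding genes accounted for 20 (9.35% against 4.84%) and RefSeq noncoding RNAs for 17 (7.94% against 3.52%). RefSeq mRNA starts that GENCODE does not share accounted for 7 (3.27% against 2.04%) and pseudogenes for 2 (0.935% against 1.71%). No such start was counted for 92 regions (43.0%). Each region was counted once, with tRNA genes taken first, then small RNAs, long noncoding RNAs, transcripts of coding genes, pseudogenes and RefSeq starts. A tRNA gene was counted only where its 5′ end lay in the region itself.

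Small RNA starts included parts of the splicing and modification machinery. Rnu1a1, a gene of the U1 spliceosomal RNA, lay in a region open in 24.0% of the nuclei in Enl-WT against 17.6% in Enl-T1, and Rnu11, of the minor spliceosome, in one with 22.1 and 17.1%. Small nucleolar RNAs, which guide the modification of ribosomal RNA, lay within 2 kb of regions near Prss12 (Snora24, 36.9 and 25.5%), Zfp949 (Snord50b, 30.9 and 22.4%), Trpv2 (Snord49b, 27.6 and 19.0%), Myo1g (Snora9, 26.8 and 18.4%), Usp46 (Snora26, 23.6 and 16.1%) and Ern1 (Snord104, 23.3 and 16.9%). Most of these are cut from the introns of host RNAs such as Snhg8, Snhg5, Snhg15 and Dancr, whose own starts lay in the same regions.

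Starts of microRNAs and of their hosts were also among them. The region at Mir22hg, host of miR-22, held a count in 44.2 and 32.9% of nuclei (chr11:75461027-75462038). That at Mir17hg, host of the growth-promoting miR-17 cluster, held one in 37.2 and 25.8% and was the longest, with 2465 bp in Enl-WT. That at Mir210, a microRNA induced by low oxygen, held one in 36.3 and 25.8% (chr7:141221436-141222361). These 3 regions were even over the lineages, with the highest lineage at 1.21, 1.28 and 1.41 times the lowest in Enl-WT.

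Rn7sk, the gene of the 7SK RNA that keeps the elongation kinase P-TEFb inactive, lay in a region (chr9:78175256-78176115) with a count in 19.9% of nuclei (Enl-WT) and 15.8% (Enl-T1). Its CPM, the counts of a region scaled to a common total of the counts in shared regions of a lineage, was 32.6 in nephron, 34.1 in stroma, 35.8 in ureteric epithelium and 32.5 in endothelium of Enl-WT, and 40.6, 43.3, 39.7 and 41.7 in Enl-T1. The log2 ratio of Enl-T1 to Enl-WT was 0.40 (95% interval 0.23 to 0.58) in nephron progenitor-like nuclei and 0.34 (0.19 to 0.50) in stroma-like nuclei. The Enl-T1 peak there was longer, 1333 bp against 860 bp, and the part of that length in the ratio was not tested.

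Among the long noncoding RNAs were well known ones. Malat1, an abundant nuclear RNA, started 547 bp from a region (chr19:5803219-5804252) with 27.5 and 20.3% of nuclei. The start of Lockd, beside the cell cycle inhibitor gene Cdkn1b, lay in a region with 30.1 and 19.7%. The start of 1810026B05Rik, which RefSeq names Chaserr, lay in a region with 39.2 and 27.0%, 16115 bp from the TSS of Chd2, a chromatin remodeller whose output this RNA is known to limit. Of the 42 regions of this kind, 40 were even over the lineages in both libraries.

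The 14 tRNA regions held 19 tRNA genes, of which 13 have the B box letters. The lowest and highest shares were 20.5 and 31.8% in Enl-WT and 15.3 and 22.9% in Enl-T1. Histidine tRNA genes were found in 2 neighbouring regions near Shf, n-THgtg3 and n-THgtg5 in one with 26.01 and 17.96% of nuclei and n-THgtg4 in the other with 21.2 and 15.47%. The genes printed above lay in regions with 31.4 and 19.4% (n-TTcgt3), 26.7 and 19.3% (n-TLcag5, with n-TLcag4 on the other strand) and 21.7 and 15.4% (n-TSgct5, near the histone gene Hist1h2bj). All 14 were even over the lineages in both libraries, with the highest lineage at 1.03 to 1.56 times the lowest in Enl-WT and 1.13 to 1.57 times in Enl-T1.

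In sequence the regions stood nearer to promoters than to other distal regions. Median GC content of the windows was 63.3%, against 49.0% in the other distal regions and 67.0% in the open promoter regions. The ratio of observed to expected CpG was 0.74, against 0.24 and 0.87. By both measures (GC of 50% or more and a ratio of 0.6 or more), 151 windows (70.6%) were CpG-rich, as were 2.95% of the other distal regions and 91.4% of the open promoter regions. Of the regions with no start counted, 55 of 92 were CpG-rich.

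Letters of promoter factors were found more often than in other distal regions. SP or KLF letters (GGGGCGGG, read on both strands like all others) were in 61 windows (28.5%, against 3.32% of the other distal and 42.1% of the open promoter windows), NF-Y letters (CCAATCA) in 37 (17.3%, against 3.47 and 14.8%), the NRF1 motif in 16 (7.48%, against 0.288 and 10.7%) and CRE letters (TGACGTCA) in 13 (6.07%, against 0.469 and 3.78%). The E-box of MYC and USF (CACGTG) was in 32 (15.0%, against 5.34 and 9.52%) and ETS letters (CNGGAAGT) in 29 (13.6%, against 7.03 and 12.2%). YY1 letters (ATGGCGGC) were in 3 (1.40%, against 0.356% of the other distal and 7.70% of the open promoter windows). The motifs of NRF1, CRE, YY1 and the E-box of MYC and USF were added after the windows were seen. Their shares describe these same windows, and nothing further is read from them. Letters rich in G, C and CpG are also more frequent in CpG-rich sequence as such, and their part in these shares was not tested.

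Letters of AP-1, GATA, MEIS, TCF21 and Hox9 to Hox13 were found less often than in other distal regions. Those of WT1, a factor of the nephron lineage, were found more often. AP-1 letters (TGANTCA) were in 9 windows (4.21%, against 11.1% of other distal windows), GATA letters (AGATAA) in 8 (3.74%, against 14.2%). WT1 letters (GTGGGAG) were in 31 (14.5%, against 10.6% of the other distal and 10.5% of the open promoter windows). They are rich in G, and the part of GC content in their share was not tested. Hox9 to Hox13 letters (TTTATGG) were in 5 windows (2.34%, against 5.47% of the other distal windows). The motif of SIX2, a nephron progenitor factor, and its relatives was in 2 (0.935%, against 1.86%). TEAD, RUNX and FOX letters were in 3.27, 2.80 and 2.80% of the windows, against 6.31, 6.66 and 4.94% of the other distal windows. The motif of HNF1 and the letters of HNF4 (CAAAGTCCA), both tubule factors, were in 0 windows each, which is near their shares of 0.690 and 0.442% in the other distal windows. The CTCF motif was in 12 (5.61%, against 8.72% of other distal and 2.99% of open promoter windows). Letters of MEIS (TGACAG) and of the E-box of TCF21 (CAGCTG), a stromal factor, were in 32 and 39 windows, 15.0 and 18.2%, and those of MEIS were in 23.7% of the other distal windows. A match is a description of the letters and does not show that a factor was bound.

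**Figure D2:**
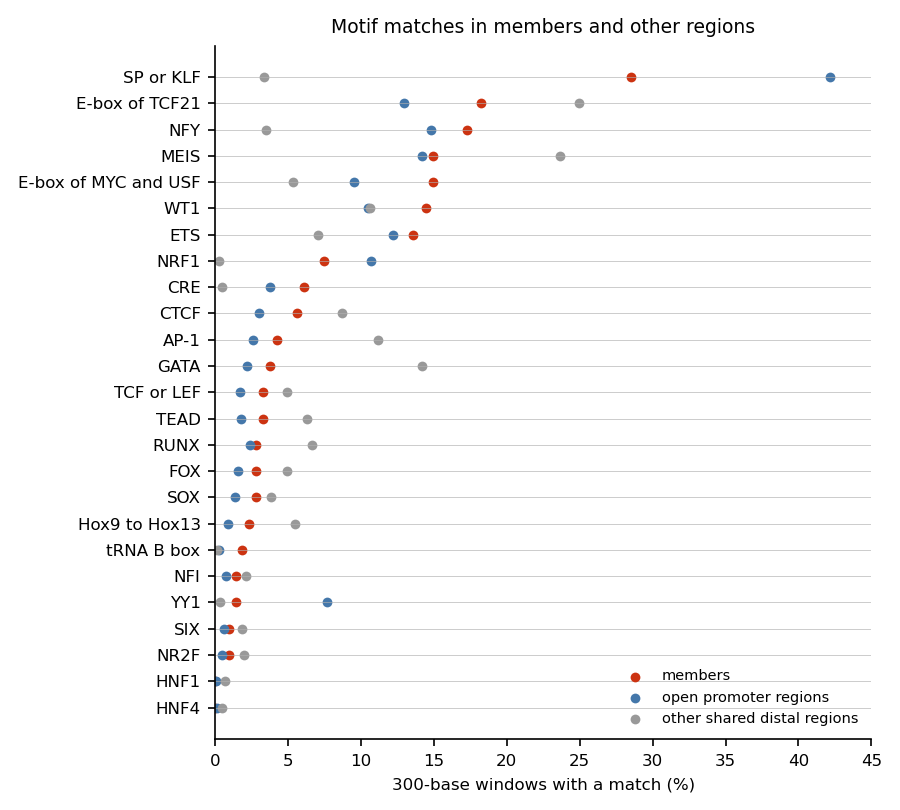
Share of 300-base windows (x axis, %) with a match to each of 25 motifs (y axis), for the 214 regions, 3675 open promoter regions and 66070 other shared distal regions. The regions lie above the other distal regions for SP or KLF (28.5%), NFY (17.3%) and NRF1 (7.48%) and below them for AP-1 (4.21%) and GATA (3.74%). NRF1 is among the motifs added after the windows were seen.

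Most of the regions were about as open in each of the 4 lineages. A region was called broad where the CPM of the highest lineage was under 2 times that of the lowest, which held for 192 of 214 in Enl-WT, 191 in Enl-T1 and 186 in both. Among all shared regions with 100 counts in each lineage, the broad ones made up 77.8% (Enl-WT) and 83.9% (Enl-T1). With the same minimum the regions were broad in 90.6 and 90.5%, the open promoter regions in 98.1 and 98.7% and the other distal regions in 54.9 and 41.8%, so the regions lay between promoters and other distal regions. A high share over all nuclei favours regions open in every lineage, so the rule bears on these counts and nothing further is read from them.

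The median region had its highest lineage at 1.297 times the lowest in Enl-WT and 1.32 times in Enl-T1, against 1.20 and 1.22 times for the open promoter regions. Endothelium was the highest lineage for 103 regions in Enl-WT (48.1%) and 110 in Enl-T1 (51.4%), near to the 54.5 and 53.3% of open promoter regions. The region near Zbtb20 had 178 CPM in nephron, 178 in stroma, 192 in ureteric epithelium and 177 in endothelium of Enl-WT, and 182, 175, 177 and 184 CPM in Enl-T1. The region 51760 bp from Wnt7b had 102, 111, 104 and 101 CPM in Enl-WT and 94.6, 94.2, 96.6 and 86.3 CPM in Enl-T1, so it was not higher in the ureteric epithelium, where Wnt7b is a marker, than in the stroma of Enl-WT. It overlaps the start of the RefSeq noncoding RNA D130051D11Rik.

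**Figure D3:**
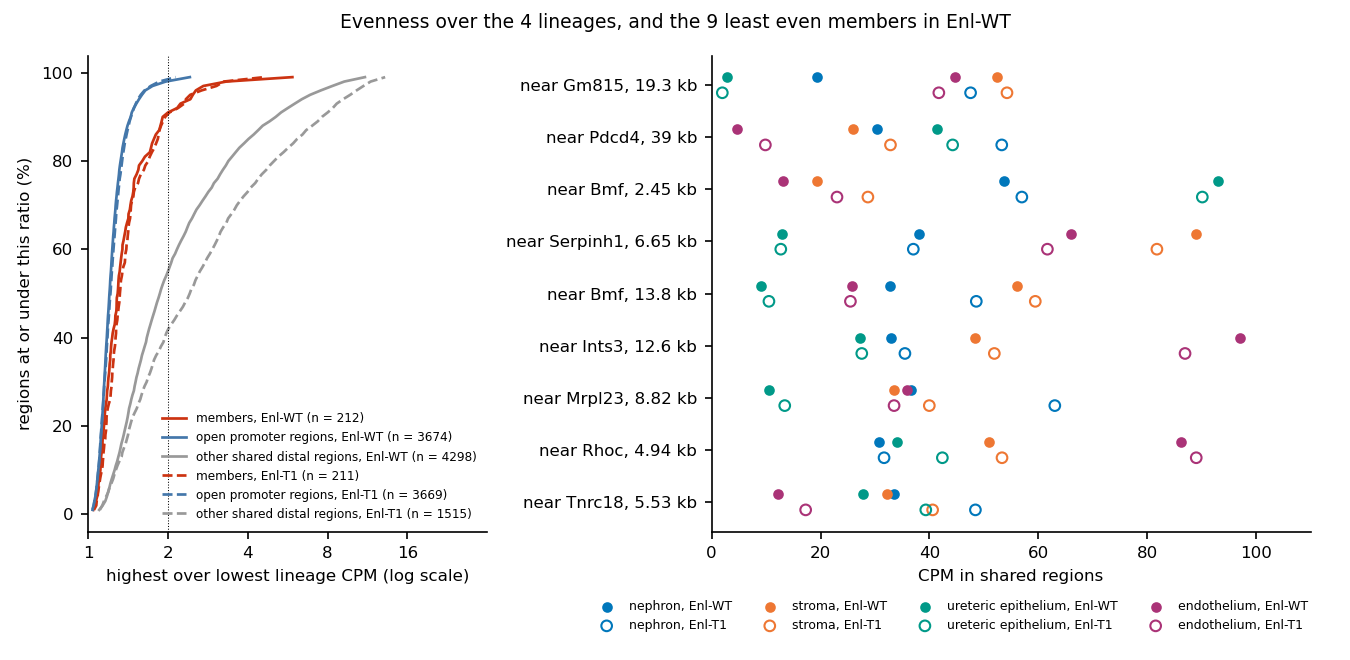
Left, share of regions (y axis, %) at or under each ratio of the highest to the lowest lineage CPM (x axis, log scale), for the regions, open promoter regions and other distal regions with 100 counts in each lineage, Enl-WT solid and Enl-T1 dashed. Right, CPM per lineage (x axis) of the 9 least even regions, Enl-WT filled and Enl-T1 open. Of the regions, 90.6 and 90.5% lie under the dotted line at 2, and ureteric epithelium is the lowest lineage in 5 of the 9 in Enl-WT.

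The 28 regions that were not broad in both libraries were of another kind in sequence. Of these, 7 were CpG-rich against 144 of the other 186, the median ratio of observed to expected CpG was 0.35 against 0.77, and 7 had another start within 2 kb against 115. In Enl-WT the endothelium led 1 region by 2-fold over each other lineage, chr3:90446248-90447112 near Ints3, a gene of the Integrator complex, with 97.0 CPM against 32.9 in nephron, 48.3 in stroma and 27.2 in ureteric epithelium. In Enl-T1 its values were 86.9, 35.5, 51.9 and 27.6 CPM, and 0 regions were led by a single lineage.

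The least even regions were named after their values were seen. The region 6647 bp from Serpinh1, which encodes a chaperone of collagen, had 89.0 CPM in stroma and 66.0 in endothelium of Enl-WT against 38.0 in nephron and 12.9 in ureteric epithelium, and 81.8, 61.7, 37.0 and 12.7 CPM in Enl-T1. Stroma and endothelium were thus the highest in both libraries. The region near Gm815 (chr19:26865363-26866540) had 52.4 CPM in stroma, 44.8 in endothelium, 19.3 in nephron and 2.8 in ureteric epithelium of Enl-WT, an 18.5-fold range, and 54.2, 41.7, 47.6 and 2.0 CPM in Enl-T1.

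At Bmf, which encodes a protein that promotes cell death, the regions differed from each other. The region 2448 bp from its TSS was highest in ureteric epithelium, with 93.0 CPM against 53.6 in nephron, 19.3 in stroma and 13.1 in endothelium of Enl-WT. The region 13778 bp away, in an intron of Bmf, was highest in stroma, with 56.2 CPM against 32.7 in nephron, 25.8 in endothelium and 9.1 in ureteric epithelium. In Enl-T1 the highest lineage of each was as in Enl-WT, at 90.1 and 59.4 CPM.

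The region in an intron of Rbm20 (nearest TSS Pdcd4) had 41.4 CPM in ureteric epithelium, 30.4 in nephron, 25.9 in stroma and 4.7 in endothelium of Enl-WT, and 44.3, 53.3, 32.8 and 9.9 CPM in Enl-T1. The region near Rhoc, a small GTPase gene of the cytoskeleton, was highest in endothelium in both libraries, with 86.3 and 89.0 CPM against at most 50.9 and 53.3 CPM elsewhere. The region near Tnrc18 was lowest there, with 12.2 and 17.3 CPM. The makeup of the nephron lineage differed between the libraries, with 719 cluster 14, 704 distal tubule-like and 1013 cluster 8 nuclei in Enl-WT against 6, 75 and 106 in Enl-T1. Cluster 14 scored highest for podocyte markers. Its leading genes held none of them and included Pax8, a marker used for early nephron epithelium. Krt15 and Krt35 led it too, as they did cluster 25, which was named early nephron epithelium, so cluster 14 is called by its number. Cluster 8 had the highest marker score for early nephron epithelium, but its leading genes, such as Ambp, Slc6a19 and Mep1a, are genes of the proximal tubule, so it is called by its number. These counts depended on the clustering: when it was repeated without doublet-like nuclei, clusters scored as podocyte held 312 nuclei of Enl-WT, and clusters scored as early nephron epithelium held 1241 (Enl-WT) and 2820 (Enl-T1) nuclei. The part of this makeup in the nephron values was not tested.

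To compare the genotypes at these regions, the libraries were compared within classes of nuclei that both held. Of the nephron progenitor-like nuclei, 1867 of 1921 in Enl-WT came from cluster 2, while those of Enl-T1 came mostly from clusters 0 and 7 (2548 and 1231 nuclei), and the stroma-like nuclei of Enl-T1 included clusters 11 and 13 (1014 and 762 nuclei), with 0 of Enl-WT. The median log2 ratio over the regions (Enl-T1 over Enl-WT) was 0.06 for nephron progenitor-like nuclei. It was -0.0025 for stroma-like, -0.07 for ureteric epithelium-like and -0.03 for endothelium-like ones. Scaling to promoter counts or by the median of ratios shifts all regions of a class by at most 0.07, and the median was 0.10 in nephron progenitor-like nuclei by the median of ratios and 0.013 when clustering was repeated without doublet-like nuclei, with fewer nuclei in the class. The medians of the other 3 classes lay on either side of 0 under these scalings.

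In the larger classes the spread of the ratios was nearer to that of the open promoter regions than to that of the other distal regions. In nephron progenitor-like nuclei the 5th and 95th percentiles were -0.17 and 0.33 for the regions, -0.22 and 0.23 for the open promoter regions and -1.04 and 0.67 for the other distal regions with 100 counts in each library. In stroma-like nuclei they were -0.22 and 0.29, -0.26 and 0.14, and -0.64 and 0.62. Counting error is larger in the other distal regions, which held fewer counts, and its part in the wider spread was not tested. The regions and the open promoter regions had to pass the share in both libraries, which bears on their narrower spread. The part of that rule was not tested.

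Few of the regions differed by 1.5-fold. The rule asked for 15% of the nuclei in both libraries, and 490 shared distal regions that passed in Enl-WT alone were left out. It thus bears on the counts that follow, and nothing further is read from them. In nephron progenitor-like nuclei 4 of 214 were higher in Enl-T1 and 0 lower, while 6.39% of all shared regions with 100 counts in each library were higher and 14.2% lower. In stroma-like nuclei 3 were higher and 1 lower (all shared regions 5.69 and 5.43%), in ureteric epithelium-like nuclei 2 were higher and 1 lower of 213 (1.47 and 3.03%), and in endothelium-like nuclei 4 were higher and 2 lower of 212 (1.72 and 2.21%). The neighbouring regions near A830005F24Rik were among the higher in all 4 classes, at log2 ratios of 0.95 and 1.05 in nephron progenitor-like nuclei, and share the longer Enl-T1 peak described above. The region near 1700001O22Rik was among the lower in 3 classes, at -0.87 in stroma-like nuclei, where the Enl-T1 peak was 735 bp against 1447 bp.

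**Figure D4:**
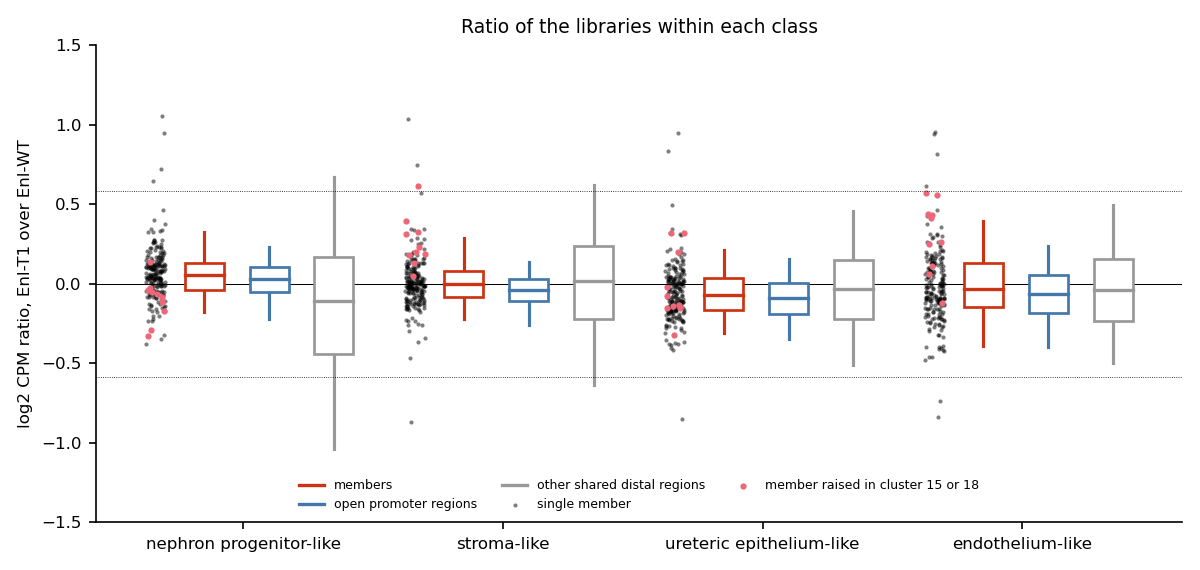
Log2 CPM ratio of Enl-T1 to Enl-WT (y axis) in 4 classes of nuclei (x axis). Points are single regions, boxes span the quartiles with the median as a line, and whiskers run from the 5th to the 95th percentile for the regions, open promoter regions and other shared distal regions with 100 counts in each library. Dotted lines mark 1.5-fold, which 4, 4, 3 and 6 of the regions pass from left to right.

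Apart from these, single regions are named only where the peaks of the libraries overlapped by 80% of both, and intervals are 95% intervals of counting error. In nephron progenitor-like nuclei the highest ratios were near Gm815 (29.8 CPM against 49.2 CPM in Enl-T1, log2 ratio 0.72, 0.56 to 0.90), in the intron of Rbm20 near Pdcd4 (34.5 and 53.9 CPM, 0.65, 0.49 to 0.81) and 72178 bp from Irf2bp2 (27.1 and 37.5 CPM, 0.47, 0.29 to 0.65). When clustering was repeated with doublet-like nuclei left out, these ratios were 0.37, 0.40 and -0.09, so the Irf2bp2 value did not keep its direction. The class itself changed in that repeat, from 4300 to 1047 nuclei in Enl-T1 and from 1921 to 1748 in Enl-WT, and the parts of doublets and of class membership in the move cannot be told apart. The lowest were near Serpinh1 (47.9 and 37.6 CPM, -0.35, -0.50 to -0.20), Ly6c2 (132.2 and 105.3 CPM, -0.33, -0.42 to -0.24) and Arhgef10l (40.5 and 32.4 CPM, -0.32, -0.49 to -0.16). The last was -0.70 in the same repeat.

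In stroma-like nuclei the highest were in an intron of Filip1l (36.3 and 55.5 CPM, 0.61, 0.47 to 0.76), 2448 bp from Bmf (19.3 and 28.7 CPM, 0.57, 0.37 to 0.77) and 88209 bp from Axin2 (98.2 and 129 CPM, 0.40, 0.31 to 0.49). The regions near Filip1l and Axin2 are among those whose counts followed ribosomal RNA sequence. The lowest were near Upk3bl (49.0 and 38.0 CPM, -0.36, -0.51 to -0.22), in an intron of Cpt1c (55.8 and 45.4 CPM, -0.30, -0.43 to -0.17) and near Cxxc5 (40.9 and 34.1 CPM, -0.26, -0.42 to -0.10). Cpt1c encodes a carnitine palmitoyltransferase of the nervous system, and Cxxc5 a CpG-binding protein that dampens Wnt signalling.

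In ureteric epithelium-like and endothelium-like nuclei, which were fewer, the intervals were wide. In the former the highest were near Mrpl23 (10.5 and 13.4 CPM, 0.35, -0.15 to 0.82), Axin2 (71.1 and 88.9 CPM, 0.32, 0.14 to 0.50) and in Spaca6 (43.9 and 54.7 CPM, 0.32, 0.09 to 0.55), and the lowest near Zfp395 (92.0 and 68.9 CPM, -0.42, -0.60 to -0.24), in Gse1 (34.2 and 25.8 CPM, -0.40, -0.71 to -0.11) and near Slc38a10 (60.3 and 46.1 CPM, -0.39, -0.61 to -0.16). The interval at Mrpl23 includes 0. In the endothelium the highest were 2448 bp from Bmf (13.1 and 23.0 CPM, 0.82, 0.27 to 1.36), near Polr3k, a gene of RNA polymerase III (38.9 and 57.8 CPM, 0.57, 0.25 to 0.89), and near Chd2 (78.0 and 108 CPM, 0.47, 0.23 to 0.70), and the lowest near Sox12 (46.8 and 33.9 CPM, -0.46, -0.86 to -0.11), Cdkn1b (59.6 and 43.2 CPM, -0.46, -0.80 to -0.14) and Arhgef10l (29.4 and 22.2 CPM, -0.40, -0.88 to 0.06). The last was -1.06 when clustering was repeated without doublet-like nuclei. That near Bmf was higher in Enl-T1 in stroma and endothelium alike, the lineages where it was lowest in Enl-WT.

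A group of 10 regions behaved unlike the rest. Clusters 18 (106 Enl-WT and 152 Enl-T1 nuclei) and 22 (46 and 55 nuclei) scored highest for nephron progenitor and stroma markers. They were left unnamed because their counts were concentrated in few regions. The regions with the most counts held 4.21 and 3.79 times their share over all nuclei. Part of these counts lay at or beside Rn18s-rs5 on chromosome 17, an 18S ribosomal RNA copy. Of 2 regions there, chr17:39847463-39848925 overlaps the copy and chr17:39842852-39844942 lies outside it. Both together are called the regions at Rn18s-rs5. Their summed CPM in cluster 18 was 34.2 times that of the named nuclei in Enl-WT and 21.4 times in Enl-T1. In the same nuclei 5 of the regions, with the nearest genes Axin2, Gtpbp4, Cdk8, Rpp21 and Filip1l, had 42.3, 33.6, 36.1, 36.9 and 40.5 times the CPM of the named nuclei in Enl-WT and 24.7, 20.4, 22.7, 24.8 and 20.7 times in Enl-T1. The median region stood at 1.14 times in both. Smaller rises were found near Cr2 (11.3 and 7.88 times) and Gm21060 (8.56 and 6.47 times).

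**Figure D5:**
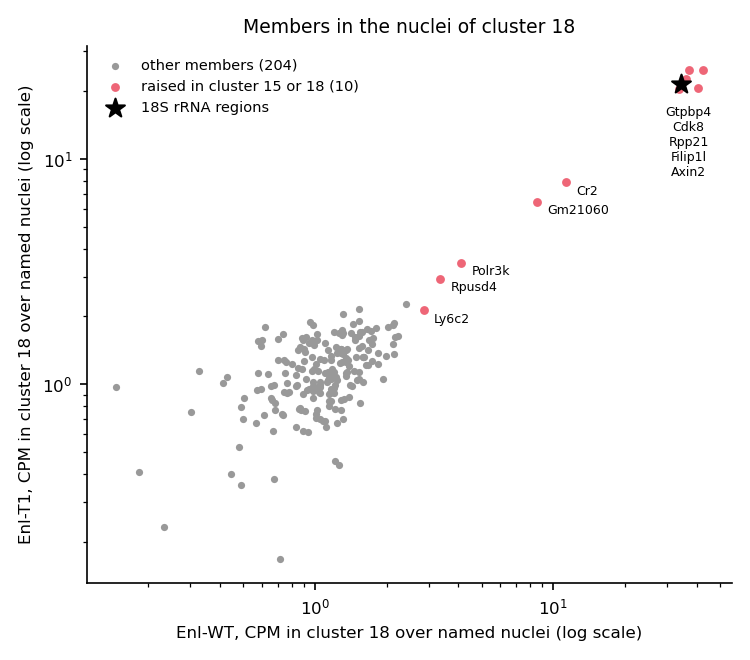
CPM of each region in the nuclei of cluster 18 over its CPM in the nuclei of named classes, Enl-WT on the x axis and Enl-T1 on the y axis (log scales). Red points are the 10 regions raised 3-fold in cluster 15 or 18, labelled by the nearest gene. The star is the sum of the 2 regions at or beside the 18S ribosomal RNA copy Rn18s-rs5, at 34.2 and 21.4. Of the red points, 5 lie beside the star.

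Regions near Rpusd4, Ly6c2 and Polr3k were raised in cluster 15. The rises were 5.29, 3.21 and 3.41 times in Enl-WT and 4.68, 3.20 and 3.43 times in Enl-T1. In cluster 18 the same regions stood at 3.35, 2.86 and 4.10 times in Enl-WT and 2.95, 2.13 and 3.46 times in Enl-T1. Cluster 15 was an unnamed cluster of shallow nuclei in which satellite-like peaks stood 5.88 and 5.24 times over the named nuclei. These peaks were raised in clusters 18 (5.57 and 4.10 times) and 22 (5.36 and 5.82 times) too. The region near Axin2 had 6 or more counts in 19.6% (Enl-WT) and 14.3% (Enl-T1) of the nuclei with a count there, against medians of 3.08 and 1.27% over all 214. This was also so near Ly6c2 (22.1 and 13.8%), the highest of all in Enl-WT, and near Rpusd4 (17.3 and 10.0%). A stretch of 154 bases of the Axin2 region and one of 479 bases of the Filip1l region matched neighbouring places within chr9:3258518-3261149 (81.8 and 73.9% identity), where 909 bases of the Rn18s-rs5 locus matched too (76.7%). Whether reads of unassembled ribosomal DNA were placed in these regions was not tested.

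The nuclei of unnamed clusters did not decide which regions were members. All 214 held a count in 15% or more of the nuclei of named classes alone (9038 and 11782 nuclei). The regions at Rn18s-rs5 held counts in named nuclei too, 1293 CPM in Enl-WT and 1343 CPM in Enl-T1. The part of ribosomal sequence in the shares of the group was not tested. The ratios of the group between the libraries stood beside those of the ribosomal RNA sequence. At Rn18s-rs5 the log2 ratio was -0.22 in the nephron progenitor class, 0.24 in stroma, 0.07 in ureteric epithelium and 0.25 in endothelium. The medians of the 5 regions were -0.04, 0.33, 0.20 and 0.42 in that order. The regions near Axin2 and Filip1l were among the highest in stroma for this measure, and the part of ribosomal sequence in their values was not tested.

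Few distal regions of any kind lay nearest to the genes of the kidney lists. Of lists for the nephron progenitor, nephron commitment and segments, stroma, ureteric epithelium, endothelium, Hox genes and genes of chromatin and elongation, only that of the ureteric epithelium had 1, the region 51760 bp from Wnt7b, and the other 6 had 0. All shared distal regions numbered 148, 152, 255, 127, 130, 65 and 65 for the same lists, from 0.098 to 0.385% of the 66284, so 1 of 214 regions (0.467%) for ureteric epithelium and 0 for each other list are near the background and are not a result about the regions.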

How the data were processed

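The deposited files held, for each library, peaks and whole-number counts per peak and barcode, made by the authors with Cell Ranger ATAC 2.1.0 (named in the submitters' processing notes) on mm10, with peaks called for each library on its own. Barcodes with 2000 to 100000 counts were kept. The study's filters that need fragments were not applied, and doublets were kept in the main values. Nuclei of both libraries were clustered together (leidenalg 0.10.2, resolution 1) on shared regions without the 214 regions, and clusters were named from marker genes. Clusters with counts concentrated in few regions, and shallow ones without a marker among their leading genes, were left unnamed. Regions were joined with bedtools 2.31.1, start sites came from GENCODE and RefSeq, and letters were read from GRCm38 by pysam 0.24.0. Intervals of shares are exact binomial (Clopper-Pearson) at 95%, and those of ratios are from fragments. Both cover counting error only. Ratios needed 100 counts in each library. Medians over the regions, percentiles and calls of 1.5-fold used ratios with 0.5 counts added to both libraries. Ratios printed with an interval had none added. The scripts were tested on simulated data. Of 25 motifs, 5 were added after the windows were seen: the tRNA B box, NRF1, YY1, CRE and the E-box of MYC and USF. With 1 library in each group no test was made, and nuclei were not used as replicates.

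The regions, gene lists and motifs were chosen with earlier results of these data known. Regions named by rule were the 10 with the largest smaller share, those nearest to listed genes, and the 3 highest and 3 lowest ratios of each class with an overlap of 80% of both peaks. The small RNA, long noncoding RNA, tRNA, least even and ribosomal examples were named after their values were seen.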

Additional observations from a re-analysis of the deposited data

Results flagged for a closer look

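A signal was found in nuclei that entered the shares over all nuclei but no comparison between lineages or classes. In the unnamed clusters 18 and 22 the CPM of the regions at or beside the 18S ribosomal RNA copy Rn18s-rs5 stood 34.2 and 27.9 times over that of nuclei of named classes in Enl-WT, and 21.4 and 17.8 times in Enl-T1. The members near Axin2, Filip1l, Rpp21, Cdk8 and Gtpbp4 rose with it in cluster 18, by 33.6 to 42.3 times in Enl-WT and 20.4 to 24.8 times in Enl-T1. The cause was not tested.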

How the results depend on the processing

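No paired analysis was possible because each group holds 1 library. The number of regions followed the rule: 420 with the 5′ end of each gene as its only TSS, 737 at a share of 10%, 79 at 20% and 31 in nuclei thinned to 2500 fragments. At 20% the median distance to a TSS was 18052 bp and 72.2% were intergenic. Median shares were 11.3% in Enl-WT and 11.1% in Enl-T1 after thinning, and 19.5% in Enl-T1 with nuclei of 5000 counts or more. With 3-fold between lineages as the limit, 7 (Enl-WT) and 9 (Enl-T1) regions were neither broad nor led by 1 lineage. Scaled to promoter counts, the median log2 ratio was 0.040 in stroma, 0.0054 in ureteric epithelium and 0.027 in endothelium, and by the median of ratios 0.10 in nephron progenitors, -0.021 in ureteric epithelium and 0.0045 in endothelium. Where peaks overlapped by 80% of both, 2 regions were higher by 1.5-fold in nephron progenitors, 1 in stroma, 0 in ureteric epithelium and 1 in endothelium, and 0 were lower in the last 3. With clustering repeated without doublet-like nuclei, which left 1047 of 4300 Enl-T1 nuclei in the nephron progenitor class, nephron progenitors had a median of 0.013 with 2 regions higher and 2 lower, and endothelium had 4 lower. Shares of thinned nuclei gave 2 lower in ureteric epithelium. The cause was not tested. Of the single regions named by their ratio, that near Irf2bp2 changed direction, from 0.47 to -0.09 in that repeat, and the medians in stroma, ureteric epithelium and endothelium changed sign under promoter scaling. Settings on the 10 regions raised in clusters 15 or 18, on named nuclei alone, on the lead over the next lineage and on any overlapping peak were added after seeing the data. Depth limits single regions in the endothelium, with 760 and 617 nuclei.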
